A study of Homo sapiens with 9 samples.

Results

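The replication-dependent histone genes encode the linker histone H1 and the core histones H2A, H2B, H3 and H4, and most of them sit in clusters. They were taken here as the protein-coding rows of the deposited gene table whose names start with HIST1H to HIST4H. Of 58735 genes in the table, 71 met this rule, 55 on chromosome 6, 15 on chromosome 1 and 1 on chromosome 12. A total of 45 had at least 10 counts summed over the 9 libraries, 12 had 1 to 9 counts and 14 had 0. For a member at 0 the total of 146338533 counts allows a level of up to 0.0205 CPM (counts put on the scale of 1 library size), by counting error only.

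HEYA8 is an established human ovarian cancer cell line, labelled as wild type and as high-grade serous carcinoma. Cells were treated for 24 h with DMSO (the solvent control), with sunitinib (which blocks receptor tyrosine kinases such as VEGFR and KIT) or with compound 32. Each treatment had 3 libraries, and no sample had cisplatin. The sources used here give no dose and no relation between the compounds. Sunitinib and DMSO samples are described as biological replicates, while for compound 32 nothing is said, so its p-values may measure only technical spread.

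Cells make these histones in S phase, when newly copied DNA needs packing into nucleosomes. Their transcripts usually end just after a short stem-loop, bound by the stem-loop binding protein SLBP and cut by the U7 snRNP, and carry no poly(A) tail. Some histone genes also give polyadenylated transcripts that run on past the stem-loop, a form known from cells that leave the cycle or differentiate. These libraries were made from RNA selected on oligo(dT), so they measured mainly the polyadenylated form, and the amount of the form without a tail was not measured.

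The stem-loop that defines this family was searched in transcripts of GENCODE release 29 and found in 32 members. The search used a 16-base pattern with set alternative bases at some positions, so stem-loops outside it would be missed. The match is shown for the most counted member of each form, 5′ to 3′. The 16 bases of the stem-loop are in capitals, with up to 5 bases of transcript on each side in lower case.
HIST1H2AC: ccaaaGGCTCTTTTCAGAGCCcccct
HIST1H2BD: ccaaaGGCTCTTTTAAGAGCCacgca
HIST1H2AG: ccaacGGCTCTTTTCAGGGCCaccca
HIST1H3E: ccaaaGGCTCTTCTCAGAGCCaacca
HIST1H4I: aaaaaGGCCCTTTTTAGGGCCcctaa
HIST4H4: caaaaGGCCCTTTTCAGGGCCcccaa
The form of HIST1H2AC was shared by 6 H2A, 8 H2B and 3 H3 members, and that of HIST1H2BD by 3 H2B and 2 H3 members. All 8 H4 members with a match carried 1 of the last 2 forms, 3 like HIST1H4I and 5 like HIST4H4, and no member of another class did. The remaining forms, of HIST1H2AG and HIST1H3E, occurred in 1 member each.

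The annotated end of the transcript sorted the members by how many reads they had. In 26 members the annotated transcripts ran at least 100 bases past the stem-loop or were spliced onward, and 20 of these had AATAAA or ATTAAA, the signals for adding a poly(A) tail, in their last 40 bases. These 26 held 65% of all 13531 member counts, with a median of 146.5 counts per gene, and 23 had at least 10 counts. In 8 members every annotated transcript with the stem-loop ended within 100 bases of it, and their median was 13.5 counts. The other 37 members had an annotated transcript with no stem-loop, close to the bare coding sequence (median length 393 bases), and a median of 7 counts. Per kilobase of gene length the medians over the 9 libraries were 82.8, 26.9 and 13.5 counts. HIST1H2BK (3788 counts) and HIST1H1C (498 counts) stood far above the rest of the last set.

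**Figure D1:**
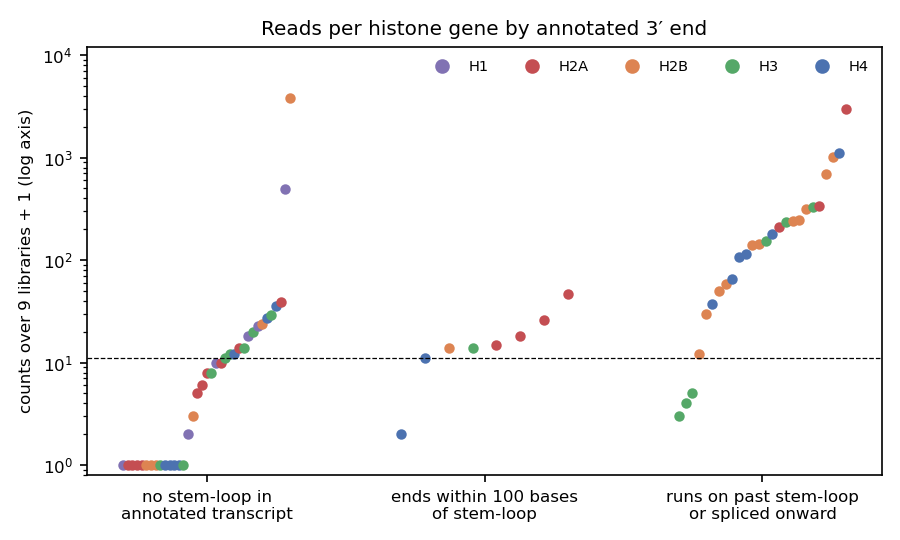
Counts of each of the 71 members summed over the 9 libraries, plus 1, on a log axis, by the annotated 3′ end of its transcripts; each point is 1 gene, coloured by histone class, and the dashed line marks 10 counts. Of the 26 members whose transcripts run on past the stem-loop 23 lie at or above that line, against 15 of the 37 with no stem-loop in the annotation.

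Reads of this family were few and concentrated in a pair of genes. Members took between 0.00336% and 0.0184% of a library's counts, and HIST1H2BK and HIST1H2AC together held 50% of the member counts. A total of 19 members passed the count filter for testing and held 94.8% of member counts: 1 H1, 3 H2A, 8 H2B, 3 H3 and 4 H4 genes. A gene can pass this filter through the group in which it is high, so these 19 do not stand for all 71. Total counts per library ran from 15498101 to 18006171.

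Sunitinib replicate 3 stood apart from its group. Its chi-square per degree of freedom was 46.4 and 45.3 against the other sunitinib libraries, while every other pair of the same treatment lay between 1.86 and 3.22. It held 4.71% of its counts in mitochondrial coding genes, where the other 8 libraries held 3.05 to 3.44%. Where it decides a value, the value without it or the values of the single libraries are given. Of the markers of the labelled tissue, PAX8 (114 to 136 CPM), KRT7, KRT8 and KRT18 were present, with less WT1 (4.71 to 13.1) and SOX17 (2.21 to 5.26). KRT19, EPCAM, CLDN4, MUC1, ESR1 and MSLN were low, between 0.0600 and 2.54 CPM. CDH1 and MUC16 were at or near 0 in every library, as were the leukocyte markers PTPRC and CD3E and the fibroblast marker DCN. Other markers were not near 0: the mesenchymal VIM had 3289 to 4527 and CDH2 172 to 223 CPM, and the endothelial CDH5 3.82 to 15.3 CPM. The endothelial PECAM1 (0.584 to 1.62 CPM) and the fibroblast COL1A1 (0.806 to 3.65 CPM) were low, at levels like that of EPCAM (0.814 to 2.54 CPM). Their part in the histone values was not tested.

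Summed over all 71 members, histone reads were higher with sunitinib and lower with compound 32 than in DMSO. The DMSO libraries gave 77.3, 79.6 and 77.6 CPM. The sunitinib libraries gave 149.7, 147 and 186 CPM, and the compound 32 libraries 35.6, 34.1 and 38.5 CPM. No sunitinib library came near the DMSO range and no compound 32 library reached it. The means were 78.2 ± 1.21, 161 ± 22.1 and 36.1 ± 2.26 CPM (SD, n = 3), so the sunitinib mean was 2.06 times the DMSO mean and the DMSO mean 2.17 times that of compound 32. Without HIST1H2BK and HIST1H2AC the means were 43.4 ± 0.685, 75.8 ± 11.6 and 19.0 ± 1.64 CPM, in the same order. These sums received no test, since the members share a definition. In bulk RNA, fewer cells that make a transcript and less of it per cell cannot be told apart.

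The classes were also summed one by one, with no test between them. Under sunitinib the summed H2A genes were 2.67 times the DMSO level and H2B 2.06 times, with H4 at 1.65, H1 at 1.54 and H3 at 1.21 times. The H2A sums were 18.3, 18.5 and 20 CPM in DMSO, 48.8, 46.4 and 56.5 in sunitinib, and 5.62, 4.01 and 6.10 in compound 32. The H2A ratio rested on HIST1H2AC: without it, a choice made after the values were seen, H2A went from 5.03 ± 1.06 to 8.06 ± 0.861 CPM (SD, n = 3), 1.60 times, below the ratio of H2B, which was 2.09 times without HIST1H2BK. The H3 sums were 6.62, 6.36 and 5.98 CPM in DMSO and 9.16, 6.32 and 7.48 in sunitinib, so these groups overlapped. The H4 sums were 9.99, 12.6 and 9.91 CPM in DMSO and 14.2, 14.8 and 24.6 in sunitinib. For H1 they were 3.63, 3.24 and 4.37 CPM in DMSO and 4.55, 5.39 and 7.41 in sunitinib. Sunitinib replicate 3 was the highest in both classes, so both ratios would be smaller without it. With compound 32 all 5 classes lay below every DMSO library, the H2A mean 3.61 times lower and the H4 mean 1.77 times lower.

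**Figure D2:**
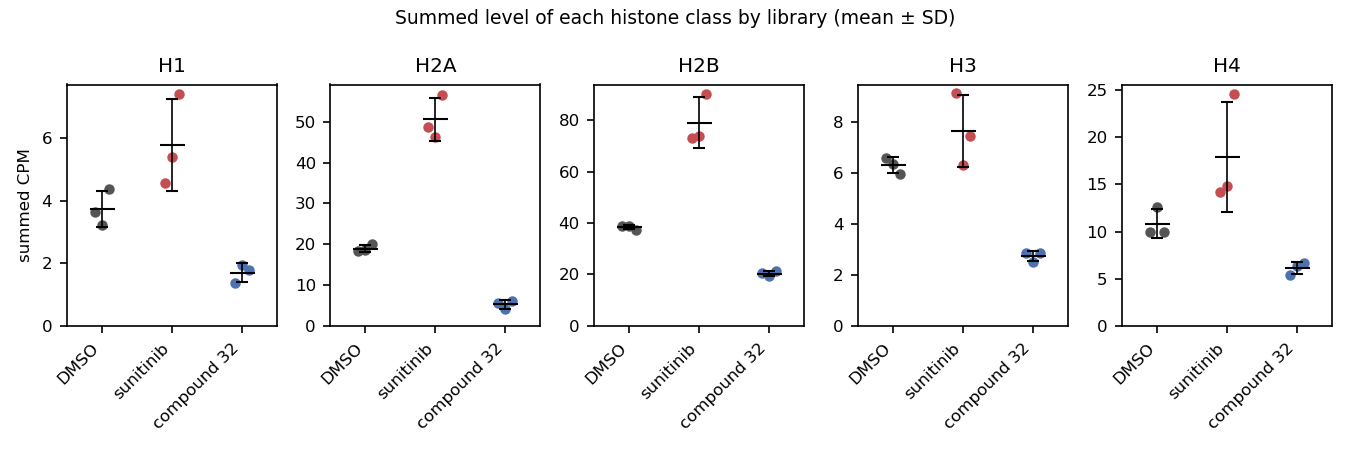
Summed CPM of the members of each histone class in each library (points), with the mean and SD of 3 libraries per treatment (black); the vertical scale differs between panels and starts at 0. Compound 32 lies below DMSO in all 5 classes, and sunitinib lies above DMSO without overlap in all classes but H3.

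Summed by annotated end, the totals of all 3 sets of members were higher with sunitinib and lower with compound 32 on average. Members that run on past the stem-loop had 50 ± 1.67 CPM in DMSO, 109 ± 16.5 with sunitinib and 19.5 ± 1.88 with compound 32 (SD, n = 3). Members that end at the stem-loop had 1.01 ± 0.351, 1.42 ± 0.379 and 0.398 ± 0.159 CPM, and their sunitinib and DMSO libraries overlapped. Members with no annotated stem-loop had 27.2 ± 1.80, 50.3 ± 5.93 and 16.2 ± 0.580 CPM, most of it from HIST1H2BK. Without HIST1H2BK and HIST1H1C, a choice made after the values were seen, 35 members of this set remained. They had 2.85 ± 0.281, 2.22 ± 0.286 and 1.26 ± 0.361 CPM. Their sum was thus lower with sunitinib than in DMSO on average, with overlapping libraries. These sums were not tested.

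Single genes were tested with edgeR's quasi-likelihood F test over all 15232 genes that passed the filter, and called at an adjusted p under 0.05. For sunitinib against DMSO 10 members rose, 1 fell and 8 did not pass the test, with a median log2 fold change of 0.95 over the 19 tested against 0.02 over all genes. The background was wide: 40.2% of all tested genes were called, 20.3% of them higher and 19.9% lower as shares of the genes tested. For compound 32 against DMSO 12 members fell and none rose, with a median of -1.22 against -0.00 over all genes, where 22.3% of all genes were called and 10.3% were lower. For compound 32 against sunitinib 15 fell and none rose (median -1.97 against -0.03), where 49.2% of all genes were called and 25.2% were lower. Both drug comparisons with DMSO use the same 3 DMSO libraries.

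With a filter that does not look at the groups (at least 10 counts over all libraries), all 45 such members entered the fit. Then 10 rose and 1 fell with sunitinib, where 13.2% of genes were higher and 14.7% lower. With compound 32, 12 were lower than in DMSO, where 7.03% of genes were, and 0 higher. All 45 log2 fold changes lay below 0, as did 50.7% of those of all genes, so none of the 45 was higher at an unadjusted p either. Of the 19 members that passed filterByExpr DESeq2 and limma voom called none higher with compound 32. In compound 32 against sunitinib 20 were lower, where 17.7% of genes were.

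The counts also moved when libraries were left out. For compound 32 against DMSO the 3401 called genes became 6548 without sunitinib replicate 3, which shares the estimate of the spread, and 2136 to 2241 without any 1 of the DMSO or compound 32 libraries. The members called lower were then 15 of 20 tested without sunitinib replicate 3 and 9 to 11 of 22 tested in the other cases. For sunitinib against DMSO 7 to 12 members were called higher over the 9 libraries left out in turn, the most without sunitinib replicate 3 and the fewest without DMSO replicate 1, and 4738 to 8004 genes were called in all.

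**Figure D3:**
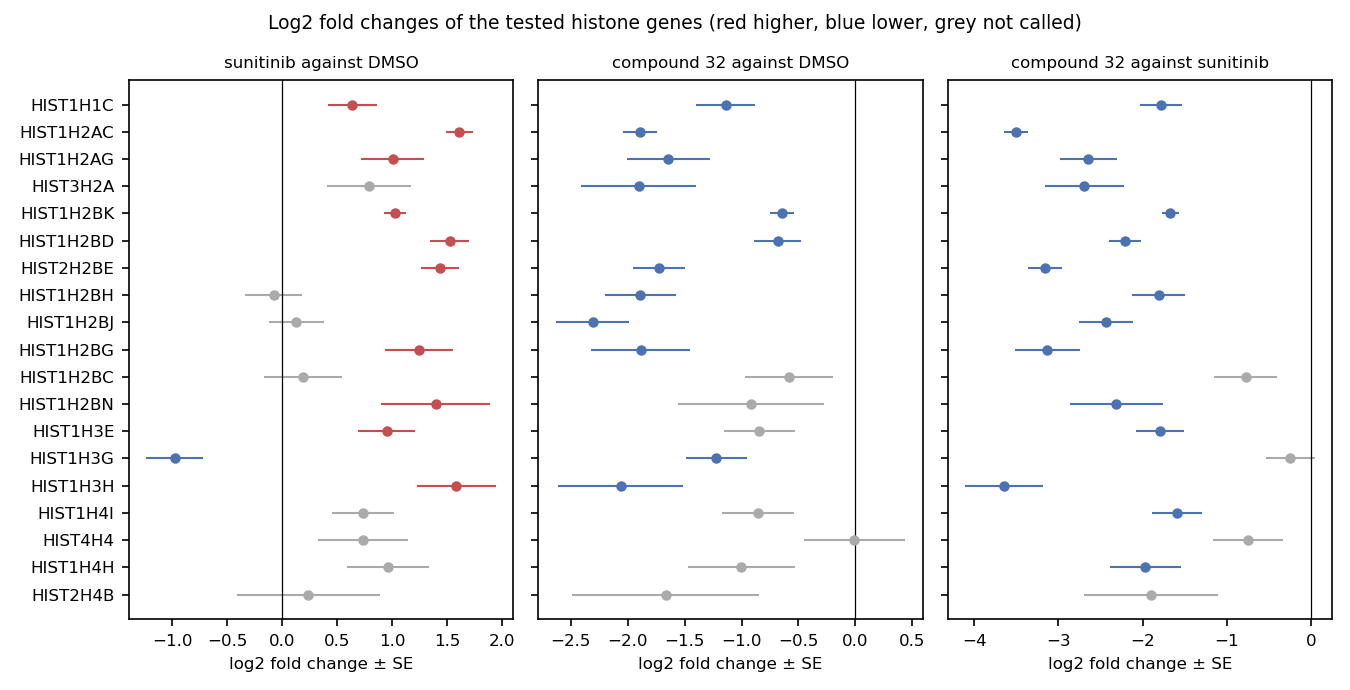
Log2 fold change of each of the 19 tested members in the 3 comparisons, with the standard error of edgeR's test (bars); red points were called higher, blue lower and grey not called at an adjusted p under 0.05. In both comparisons of compound 32 all 19 points lie below 0, from -0.01 to -2.31 against DMSO, whereas with sunitinib HIST1H3G alone was called lower.

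Among the H2A genes, which encode 1 partner of the H2A-H2B dimer, HIST1H2AC (H2AC6 in RefSeq, chr6:26124145-26139116, + strand, GRCh38) carried most of the reads. It had 14.0, 13.9 and 13.8 CPM in DMSO, 40.7, 37.5 and 49.4 in sunitinib, and 4.27, 3.00 and 3.94 in compound 32. The 3 treatments did not overlap. HIST1H2AC rose with sunitinib by 1.61 ± 0.12 on the log2 scale (SE, edgeR adjusted p = 2.14e-06) and fell with compound 32 by 1.89 ± 0.15 (7.07e-06). Its level was 11.3-fold lower with compound 32 than with sunitinib. Its longest annotated transcript runs 1128 bases past the stem-loop.

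HIST1H2AG, another H2A gene, had 1.95, 1.56 and 2.57 CPM in DMSO, 4.55, 4.15 and 3.45 in sunitinib, and 0.776, 0.250 and 0.896 in compound 32. Its log2 fold changes were 1.01 ± 0.28 (edgeR adjusted p = 0.0151) and -1.64 ± 0.37 (0.00817). The rise with sunitinib missed the threshold without DMSO replicate 1 (0.97, adjusted p = 0.0551), DMSO replicate 2 (0.84, 0.0709) or sunitinib replicate 1 (0.91, 0.0505). HIST3H2A had 1.17, 1.08 and 1.99 CPM in DMSO, 2.28, 2.73 and 2.34 in sunitinib, and 0.129, 0.188 and 0.777 in compound 32. It was lower with compound 32 by a log2 fold change of -1.90 ± 0.50 (edgeR adjusted p = 0.0192), a call lost without DMSO replicate 3, compound 32 replicate 1 or compound 32 replicate 2 (-1.58, -1.52 and -1.60). With sunitinib its log2 fold change of 0.79 ± 0.38 did not pass the test (0.119), although the libraries did not overlap.

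H2B, the other partner of the dimer, had the most tested members. HIST1H2BK (H2BC12, chr6:27146418-27146798, - strand) had 19.2, 22.5 and 21.1 CPM in DMSO, 40.8, 39.4 and 48.0 in sunitinib, and 13.4, 13.0 and 13.7 in compound 32. It rose with sunitinib by 1.03 ± 0.10 on the log2 scale (edgeR adjusted p = 1.09e-05) and fell with compound 32 by 0.65 ± 0.10 (0.00113). The spread between its replicates was small beside both differences. Its annotated transcript is only 381 bases long, and 74.1% of its 50-base stretches also occur in other genes, 61.4% in H2BFS, which had 11 counts in all. How reads that fit several genes were treated is not given, so its level is uncertain. The RefSeq gene spans 8566 bases, and HIST1H4I lies inside that span on the other strand.

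HIST1H2BD had 5.58, 4.56 and 3.67 CPM in DMSO, 12.8, 11.5 and 15.5 in sunitinib, and 2.91, 2.32 and 3.35 in compound 32. It rose by 1.52 ± 0.18 with sunitinib (edgeR adjusted p = 5.6e-05). Its fall with compound 32, -0.68 ± 0.21 (0.036), was lost with limma voom (0.0656) and without DMSO replicate 1, DMSO replicate 2, compound 32 replicate 1 or compound 32 replicate 2 (adjusted p of 0.085 to 0.139). HIST2H2BE (H2BC21, chr1:149884459-149886652, - strand) had 3.76, 2.82 and 3.99 CPM in DMSO, 8.63, 9.42 and 10.5 in sunitinib, and 0.776, 1.25 and 1.14 in compound 32. The 3 treatments were fully apart, with log2 fold changes of 1.43 ± 0.17 (edgeR adjusted p = 6.99e-05) and -1.73 ± 0.23 (0.000324). HIST1H2BG showed the same pattern at lower depth, with 1.88, 1.20 and 0.901 CPM in DMSO, 2.59, 3.78 and 3.12 in sunitinib, and 0.194, 0.563 and 0.299 in compound 32. Its log2 fold changes were 1.25 ± 0.31 (0.00788) and -1.89 ± 0.43 (0.00927).

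A pair of H2B genes fell with compound 32 and showed little difference with sunitinib. HIST1H2BH had 2.98, 3.36 and 2.44 CPM in DMSO, 2.28, 2.73 and 3.38 in sunitinib, and 0.776, 0.438 and 1.14 in compound 32. HIST1H2BJ had 1.69, 2.04 and 2.83 CPM in DMSO, 2.28, 2.11 and 2.80 in sunitinib, and 0.323, 0.438 and 0.538 in compound 32. In both genes sunitinib and DMSO overlapped, and every compound 32 library lay below both. Their log2 fold changes were -0.08 ± 0.26 and 0.13 ± 0.25 with sunitinib (edgeR adjusted p of 0.837 and 0.709), whose signs changed under other settings. With compound 32 they were -1.89 ± 0.31 and -2.31 ± 0.32 (0.00137 and 0.000456).

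HIST1H2BN had 0.973, 0.300 and 0.772 CPM in DMSO, 1.16, 1.74 and 2.54 in sunitinib, and 0.711, 0.125 and 0.239 in compound 32. Its rise with sunitinib (1.40 ± 0.50, edgeR adjusted p = 0.0418) did not pass without any 1 of the DMSO libraries, sunitinib replicate 2 or compound 32 replicate 3 (0.051 to 0.154). Its exons overlap HIST1H2AK on the other strand and HIST1H2AL on its own, and whether reads were counted by strand is not given. HIST1H2BC was called in no comparison, at 1.03 ± 0.409 CPM in DMSO, 1.19 ± 0.382 in sunitinib and 0.688 ± 0.131 in compound 32 (SD, n = 3).

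**Figure D4:**
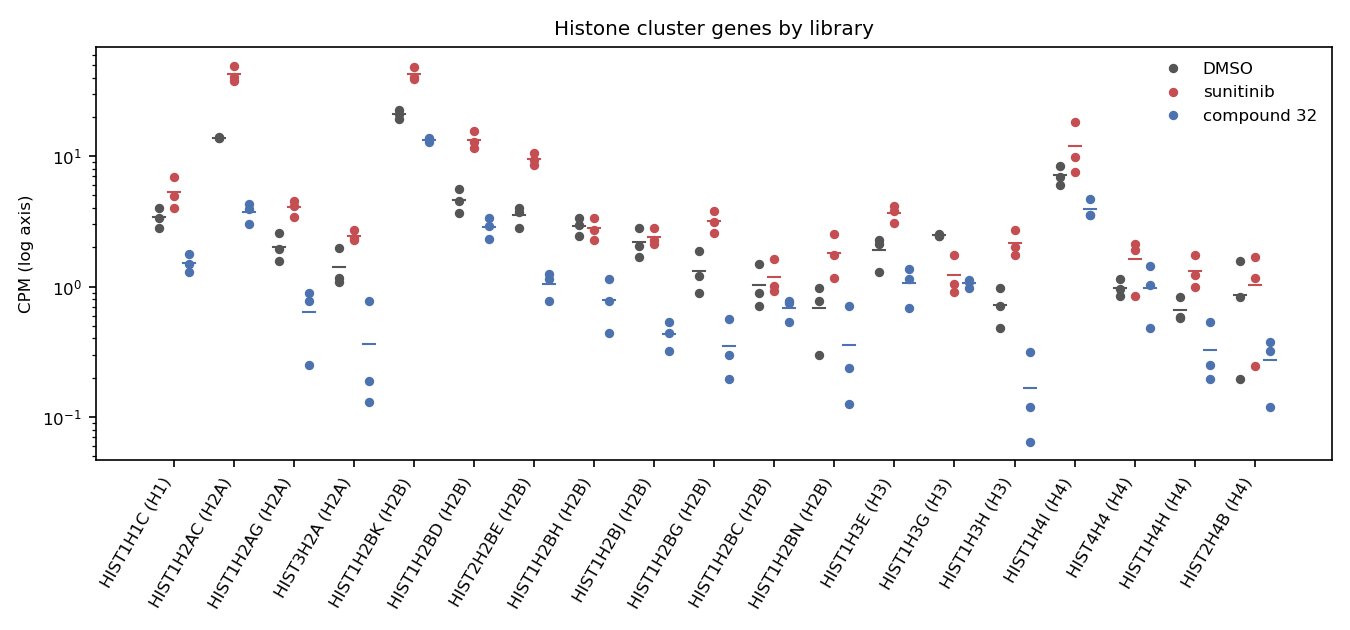
CPM of the 19 tested members in each of the 9 libraries (points, log axis) with the mean of each treatment (lines), ordered by histone class and level. HIST1H2AC separates all 3 treatments, from 3.00 to 49.4 CPM, and in HIST1H3G sunitinib and compound 32 both lie below DMSO.

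H3 and H4 form the core tetramer of the nucleosome, and the H3 genes did not move as 1 group. HIST1H3G (H3C8, chr6:26269405-26271815, - strand) had 2.53, 2.46 and 2.44 CPM in DMSO, 1.75, 1.05 and 0.910 in sunitinib, and 0.970, 1.13 and 1.08 in compound 32. It was the tested member that fell with both compounds, by 0.98 ± 0.26 (edgeR adjusted p = 0.011) and 1.22 ± 0.27 (0.00746) on the log2 scale. The sunitinib call passed under every other scaling, filter, tool and left-out library tried, with values from -1.33 to -0.80. Between the compounds it differed by -0.24 ± 0.29 (0.507).

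HIST1H3H had 0.973, 0.480 and 0.708 CPM in DMSO, 2.70, 1.74 and 2.02 in sunitinib, and 0.0646, 0.313 and 0.120 in compound 32, the last being 1, 5 and 2 counts. It rose by 1.58 ± 0.36 with sunitinib (edgeR adjusted p = 0.0045) and was 12.5-fold lower with compound 32 than with sunitinib. Its fall against DMSO, -2.06 ± 0.55 (0.0194), was lost without DMSO replicate 1, DMSO replicate 3, compound 32 replicate 1 or compound 32 replicate 3 (0.0524 to 0.078). HIST1H3E had 2.14, 2.28 and 1.29 CPM in DMSO, 3.81, 3.10 and 4.16 in sunitinib, and 1.36, 0.688 and 1.14 in compound 32. Its rise of 0.95 ± 0.26 with sunitinib (0.0136) was lost without DMSO replicate 3 (0.0602), and with compound 32 it overlapped DMSO (-0.84 ± 0.31, 0.0731).

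No H4 gene was called against DMSO with either compound, while at an unadjusted p under 0.05 edgeR counted 2 higher with sunitinib and 1 lower with compound 32. HIST1H4I, the most counted, had 6.88, 8.45 and 6.05 CPM in DMSO, 7.57, 9.92 and 18.4 in sunitinib, and 3.56, 3.57 and 4.66 in compound 32. Sunitinib replicate 3 was well above the other sunitinib libraries, which overlapped DMSO. The log2 fold change of 0.73 ± 0.28 with sunitinib (edgeR adjusted p = 0.0581) became 0.28 without that library, while DESeq2 (0.029), upper-quartile scaling (0.0394), library totals (0.0353), no filter (0.00027) and the fit without sunitinib replicate 1 (0.0092) called it. Compound 32 lay below every DMSO library, at -0.86 ± 0.31 (0.074), and DESeq2 called this too. HIST1H4H (114 counts in all) gave 0.96 ± 0.37 (0.0585) and -1.0 ± 0.47 (0.154), the first called with upper-quartile scaling (0.042), library totals (0.0446) and without compound 32 replicate 3 (0.0499), and HIST4H4 (178 counts), on chromosome 12, 0.74 ± 0.41 (0.178) and -0.01 ± 0.44 (0.993). Between compounds HIST1H4I and HIST1H4H fell, by 1.59 ± 0.30 (0.00117) and 1.97 ± 0.42 (0.0024). HIST2H4B (107 counts) was called nowhere, and 97.2% of its 50-base stretches also occur in HIST2H4A, so reads of these copies cannot be assigned with certainty.

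The linker histone gene HIST1H1C (H1-2) had 3.37, 2.82 and 3.99 CPM in DMSO, 4.02, 4.96 and 6.96 in sunitinib, and 1.29, 1.5 and 1.79 in compound 32. Its fall with compound 32 was -1.14 ± 0.26 (edgeR adjusted p = 0.00944). Its rise with sunitinib, 0.64 ± 0.22 (0.0403), was lost without sunitinib replicate 3 (0.40, 0.124), without any of DMSO replicate 1, DMSO replicate 2, sunitinib replicate 2 or the 3 compound 32 libraries, with limma voom (0.0511), with at least 10 counts as the filter (0.0512) and in the fit of only the 6 libraries compared (0.0711).

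Per kilobase of gene length, HIST1H2BK was highest in DMSO at 54.9 ± 4.33 CPM per kb (SD, n = 3), on its short annotated model. HIST1H2AC followed at 8.33 ± 0.0740, then HIST1H4I at 5.51 ± 0.945, HIST1H1C at 5.28 ± 0.912 and HIST1H2BD at 5.28 ± 1.10. The last 3 did not differ beyond their spread. HIST1H2BJ (2.30 ± 0.617) and HIST2H2BE (1.61 ± 0.283) lay lower.

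The 26 members with at least 10 counts that missed the filter had summed levels of 4.74, 4.92 and 5.40 CPM in DMSO, 5.98, 6.45 and 6.70 in sunitinib, and 1.68, 2.25 and 1.79 in compound 32. The treatments again did not overlap. The most counted were HIST2H4A (65 counts), HIST2H2BF (57) and HIST1H2BE (49). In the fit with at least 10 counts HIST1H2BE rose with sunitinib (1.76 ± 0.60, edgeR adjusted p = 0.0391), although 26.9% of its 50-base stretches occur in an antisense gene that overlaps it. In compound 32 against sunitinib HIST1H2BE, HIST1H2AE, HIST2H4A, HIST2H2BF and HIST1H4E were lower in that fit, by log2 fold changes of -3.91, -2.58, -2.40, -1.79 and -3.05.

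Many members stand head to head and share the stretch between them. Pairs were counted on GENCODE positions only. Of 12 such pairs with starts less than 500 bases apart, 11 join an H2A and an H2B gene and 1 an H3 and an H2B gene. HIST1H2AK and HIST1H2BN overlap in GENCODE and so were not counted. Their RefSeq genes start head to head, at 27838375 and 27838569. HIST1H2BO is counted both with HIST1H2AM and, as the H3 pair, with HIST1H3J. In GENCODE, HIST1H3J starts at position 27893106 and overlaps HIST1H2AM. Its RefSeq gene starts at 27890826, more than 500 bases from HIST1H2BO, so the H3 pair rests on the GENCODE annotation. The 4 pairs given below were chosen after their values were seen. HIST1H2BC and HIST1H2AC start 218 bases apart, and had 141 and 2974 counts. HIST1H2BK had 3788 counts and HIST1H2AH, 330 bases away, had 13. HIST2H2BE had 695 counts and HIST2H2AC, 322 bases away, had 38, on annotated lengths of 2194 and 390 bases. Per kb of gene length in DMSO they had 1.61 ± 0.283 and 1.08 ± 0.419 CPM (SD, n = 3). On that scale HIST1H2BC and HIST1H2AC had 1.24 ± 0.490 and 8.33 ± 0.0740. HIST1H2BK and HIST1H2AH had 54.9 ± 4.33 and 0.369 ± 0.351. HIST1H2BJ had 245 counts and HIST1H2AG, 291 bases away, had 333, or 2.30 and 0.900 CPM per kb of gene length in DMSO. With sunitinib the log2 fold changes of HIST1H2BJ and HIST1H2AG were 0.13 ± 0.25 and 1.01 ± 0.28. Differences between partners were not tested.

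Promoters from RefSeq (GRCh38.p14) are printed for HIST1H2AC, whose window holds the stretch shared with HIST1H2BC, for HIST2H2BE, and for HIST1H3G, which moved the other way with sunitinib. Each line gives the 250 bases before the RefSeq start, 5′ to 3′ on the gene's strand. Capitals mark the TATA motif TATAAA, the CCAAT box and the octamer ATTTGCAT on either strand. The positions are chr6:26123922-26124171 (+ strand), chr1:149886683-149886932 (- strand) and chr6:26271414-26271663 (- strand). The GENCODE model of HIST1H3G, on which reads were counted, starts upstream of the RefSeq start, at 26271815. The window printed for HIST1H3G thus lies inside that model.
HIST1H2AC: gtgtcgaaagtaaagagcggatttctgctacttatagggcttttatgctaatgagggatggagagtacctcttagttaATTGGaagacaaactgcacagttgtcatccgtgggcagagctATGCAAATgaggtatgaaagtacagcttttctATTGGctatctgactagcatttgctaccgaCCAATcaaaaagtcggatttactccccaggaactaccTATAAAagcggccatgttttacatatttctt
HIST2H2BE: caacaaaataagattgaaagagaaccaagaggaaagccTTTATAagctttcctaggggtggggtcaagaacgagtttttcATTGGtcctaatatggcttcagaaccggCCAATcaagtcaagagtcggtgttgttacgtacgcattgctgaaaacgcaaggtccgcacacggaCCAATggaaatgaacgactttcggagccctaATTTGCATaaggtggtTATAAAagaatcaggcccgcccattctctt
HIST1H3G: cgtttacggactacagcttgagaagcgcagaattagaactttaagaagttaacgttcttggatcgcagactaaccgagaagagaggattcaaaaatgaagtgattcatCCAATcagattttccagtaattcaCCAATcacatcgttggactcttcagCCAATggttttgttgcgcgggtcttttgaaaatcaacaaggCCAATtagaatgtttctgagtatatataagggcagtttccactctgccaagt
HIST1H2AC and HIST2H2BE hold the octamer, which POU factors bind, and HIST1H3G holds 4 copies of CCAAT and neither other motif as spelled here.

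Motifs were counted by gene, in any of its windows from 250 bases before to 50 after the RefSeq start. The octamer was found in 11 of 16 H2A genes (68.8%) and 14 of 18 H2B genes (77.8%). It was found in 1 of 13 H3 and in 0 of 6 H1 and 0 of 13 H4 genes. The H3 match was in HIST1H3D, in a window that is also the promoter of HIST1H2AD (chr6:26199294-26199543). The other HIST1H3D window held no octamer. Over all 27305 genes with a promoter sequence the share with the octamer was 2.19%. CCAAT was in all H1, H2A, H2B and H3 genes with a promoter and in 3 of 13 H4 genes, against 39.7% of all. TATAAA was in 45 of 66 members (68.2%), against 14.0% of all. A match describes letters in the window only.

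The genes that cut, load and replace these histones were counted from lists. Beside these counts stand the shares of all tested genes, 20.3% higher and 19.9% lower with sunitinib and 12% higher and 10.3% lower with compound 32. Between compounds the shares were 24.1% higher and 25.2% lower with compound 32. These shares are from the fit of all 9 libraries and do not apply to counts from fits that left a library out. The counts of processing genes that rose with sunitinib or fell with compound 32, and of replacement histones that rose with sunitinib, lay near or below those shares. Between compounds, so did the counts of processing genes and chaperones lower with compound 32 and of replacement histones higher with it. In the list of 29 genes for histone transcript control and processing, 4 rose and 14 fell with sunitinib, and 6 rose and 4 fell with compound 32. SLBP changed by -0.76 ± 0.10 and 0.36 ± 0.10 on the log2 scale (edgeR adjusted p = 0.000115 and 0.0212). NPAT, the coactivator of histone gene transcription, changed by -0.63 ± 0.08 and 0.41 ± 0.08, and CASP8AP2, a partner at histone locus bodies, by -0.68 ± 0.08 and 0.39 ± 0.08. The U7 snRNP proteins LSM11 and LSM10 gave -0.81 ± 0.11 and 0.12 ± 0.10 with sunitinib, the latter not called, and 0.26 ± 0.11 (not called) and -0.29 ± 0.10 (0.0499) with compound 32. ZNF473, another U7 partner, gave -0.15 ± 0.10 (not called) and -0.52 ± 0.10.

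Within that list the genes with the smallest p were CCNE2 (-2.05 and 1.84), CDK2 (-1.16 and 0.60), ERI1 (-0.75 and 0.14, the latter not called) and CPSF2 (-0.36 and -0.48), with the sunitinib value first. The 4 that fell with compound 32 became 10 without sunitinib replicate 3, where the genes called against DMSO rose from 3401 to 6548. They became 2 without DMSO replicate 2, DMSO replicate 3 or compound 32 replicate 1, where fewer genes were called too. Of 21 histone chaperones 0 rose and 16 fell with sunitinib (also 0 higher at an unadjusted p under 0.05), and 5 rose and 1 fell with compound 32, or 9 and 3 without sunitinib replicate 3. The 1 that fell was not called without DMSO replicate 1, DMSO replicate 2 or any 1 of the compound 32 libraries. ASF1B gave -1.35 and 0.81, CHAF1A -1.47 and 0.41, CHAF1B -1.41 and 0.68, and MMS22L -1.27 and 0.56. Of 20 S phase genes all 20 fell with sunitinib, among them UHRF1 (-2.05), E2F1 (-1.95) and RRM2 (-2.01). With compound 32, 15 rose, among them RRM2 (1.11), E2F1 (0.92) and CDC6 (0.76), and 0 fell (also 0 at an unadjusted p under 0.05). Between compounds all 20 were higher with compound 32, among them FEN1 (2.31), as were 13 of the 29 processing genes (7 lower) and 14 of the 21 chaperones (1 lower, 0 without compound 32 replicate 3). The summed histone reads lay in the opposite direction to the S phase list in both comparisons with DMSO.

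Most replacement histones are made outside S phase too, from polyadenylated transcripts. Among the 11 tested, 2 rose and 4 fell with sunitinib, or 7 fell without sunitinib replicate 3. The shares of all genes higher or lower in the fit without that library are not given here. With compound 32, 0 rose (1 was higher at an unadjusted p under 0.05) and 5 fell. H1F0, a linker histone of resting cells, gave 0.84 ± 0.09 and -2.01 ± 0.10, and H2AFJ 1.02 ± 0.13 and -0.25 ± 0.14 (not called). H2AFX gave -0.88 ± 0.10 and -0.69 ± 0.10, CENPA -0.57 ± 0.12 and -1.14 ± 0.13, and H1FX 0.27 ± 0.10 (not called) and -0.73 ± 0.11. Between compounds 2 were higher with compound 32 (4 without sunitinib replicate 3) and 4 lower.

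RNAs without a poly(A) tail were counted as a measure of what else the selection let through. Their list, mostly RN7SL2, summed to 7.14 to 11.2 CPM in DMSO, 8.89, 19.2 and 85.2 in sunitinib and 49.3, 19.2 and 18.9 in compound 32. Sunitinib replicate 1 lay within the DMSO range of this measure, sunitinib replicate 3 was highest, and all compound 32 libraries lay above DMSO. The part of poly(A) selection in the histone values was not tested.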

How the data were processed

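The authors deposited whole-number, unscaled read counts for every gene in 9 libraries. Per the labels' protocols, RNA was extracted with TRIzol, selected on oligo(dT) beads and copied with random hexamers. The submitters' processing notes name fastp, HISAT2 2.0.5, featureCounts, DESeq2, edgeR and the builds hg38 and mm10, with no role given. All 58735 genes match GENCODE release 29 (GRCh38) in identifier, name, strand and position. The sources used here do not give the strand setting or the treatment of reads that fit several genes.

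Genes were filtered with filterByExpr, scaled by TMM factors (0.983 to 1.0511) and tested with edgeR 4.0.16 in R 4.3.3 by the robust quasi-likelihood F test. The group-means model over all 9 libraries had 6 residual degrees of freedom, and p-values were Benjamini-Hochberg adjusted over 15232 genes, n = 3 per group. CPM use the same factors, and the test was tested on simulated data. Alternatives were other scalings and filters, DESeq2 1.42.0, voom in limma 3.58.1, a replicate block, only the 6 libraries compared, a threshold of 0.01 and each library left out. No 2 libraries were copies of each other.

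Every member that passed the filter is named, and the 12 with the highest mean CPM, or called in 2 or more comparisons, are given per library. In each list the 3 genes with the smallest p per comparison and 6 fixed regulators are named. Members and lists were chosen with earlier results of these data known. Stem-loops were searched in GENCODE 29 transcripts by a pattern with set alternative bases at some positions. All 71 members matched a RefSeq gene, 66 with a promoter.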

Additional observations from a re-analysis of the deposited data

How the results depend on the processing

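Of 1079 log2 fold changes of members recomputed under other settings, 1002 kept their direction and side of the threshold, 39 lost and 26 gained a call, and 12 changed sign. The sign changes were in genes that were not called: with upper-quartile scaling HIST1H2BH (0.0058, sunitinib) and with DESeq2 HIST4H4 (0.0031, compound 32). The others came from left-out libraries, which gave -0.24 to 0.054 for HIST1H2BH, -0.032 to 0.34 for HIST1H2BJ, -0.26 to 0.98 for HIST2H4B and -0.088 to 0.54 for HIST1H2BC with sunitinib, -0.40 to 0.33 for HIST4H4 with compound 32, and -0.42 to 0.10 for HIST1H3G between compounds. At an adjusted p under 0.01, 6 members were higher and 0 lower with sunitinib, and 3948 and 1715 genes were called against DMSO with sunitinib and compound 32. For compound 32 against DMSO the fit of only 6 libraries called 6372 genes. The members' median for sunitinib was 0.57 with at least 10 counts and 0.41 with no filter, and for compound 32 -1.33 with both, as these settings admit more low genes. Leaving out each library gave medians of 0.90 to 0.98, -1.43 to -1.22 and -2.30 to -1.86 in the 3 comparisons. All genes called were 4738 to 8004 with sunitinib, 2136 to 6548 with compound 32 and 6352 to 9139 between compounds. Among the members 7 to 12 were higher with sunitinib, 9 to 15 lower with compound 32 and 16 to 19 lower between compounds. The filter was rerun each time, so more members could be tested than the 19 of the main fit. The replicate numbers did not pair the samples (correlations of same-numbered libraries from -0.13 to 0.094), and with a replicate block 10, 12 and 15 members were called in those directions. Of the 19 members tested in the main fit 13 had a mean under 50 counts per library, which limits the precision for single genes.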
